A study of Mus musculus with 23 samples.

Results

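The genes described here are 30 genes of cholesterol and fatty acid synthesis, picked by name from the 21900 protein-coding genes of the table and followed over all 8 groups of libraries. All 30 were in the table, and all 30 passed the filter on low counts in each fit. By role they were 7 genes of the mevalonate steps, 11 of the sterol steps, 8 of fatty acid synthesis and desaturation, and 4 regulators or carriers. The study measured polyadenylated RNA in OT-I and OT-II cells, CD8 and CD4 T cells with a transgenic receptor that recognises an ovalbumin (OVA) peptide, after their transfer into C57BL/6 mice. Mice were given their treatment 1 day after the transfer, and the cells were collected at 5 days from pooled spleens and lymph nodes by fluorescence-activated sorting. The groups of OT-I cells were A8B1-OVA (1 μg), molar-equivalent OVA, higher-dose OVA and saline, with 3 libraries each. The groups of OT-II cells were the same, with 3 libraries each and 2 for higher-dose OVA (replicates 2 and 3). The title of the study speaks of targeting erythrocytes, the labels do not say what A8B1 is, and they mark the OVA groups by numbers without a unit. The recipients of all groups, saline included, were wild type and kept their own lymphocytes. Each library holds the RNA of 3 mice, and nothing says whether the pools differ in any other way. The p-values below therefore measure the spread between these libraries.

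Cholesterol is built from acetyl-CoA, which is condensed and turned into mevalonate, then into isoprenoids and squalene, and closed and trimmed to the sterol. Fatty acids are built from the same acetyl-CoA by carboxylation, elongation by fatty acid synthase, and desaturation. Both sets of genes are textbook targets of the SREBP transcription factors, which are held at the endoplasmic reticulum by INSIG proteins when sterols are plentiful and are cut and released when sterols run low. T cells that enter growth and division are known to make membrane lipids, and liver X receptors drive genes of sterol efflux.

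Library totals ran from 26584040 to 73503642 counts, so that a count of 0 allows up to 0.0408 to 0.113 CPM (taken as 3 counts, for counting error alone). CPM are counts scaled to a common library size, here with TMM factors (trimmed means of log ratios) over all 23 libraries. The summed level of Cd8a and Cd8b1 was 2378 to 4133 CPM in OT-I libraries and 24.8 to 59.8 CPM in OT-II libraries, and that of Cd4 and Zbtb7b was 2.02 to 198 CPM in OT-I libraries, highest in replicate 1 of higher-dose OVA, and 621 to 782 CPM in OT-II libraries. Markers of other cells were higher in some libraries. In OT-I cells the sum of 12 myeloid markers reached 895 CPM in replicate 2 of molar-equivalent OVA and 354 CPM in replicate 1 of saline, and in OT-II cells 566 CPM in replicate 1 of saline, against 33.2 to 160.2 CPM in the other 20 libraries. The sum of 10 B cell markers was 544 CPM in the first of these and 187 CPM in replicate 3 of OT-II molar-equivalent OVA. With replicate 1 of OT-I higher-dose OVA, which carries the raised CD4 sum, they form a set of 5 named raised-marker libraries here. The sum of 8 erythroid markers was 1115, 191.5 and 690.3 CPM in OT-II saline replicates 1, 2 and 3. It was 633 CPM in replicate 2 of OT-I molar-equivalent OVA. Replicate 3 of OT-II saline was not put in the set, so fits without the set keep it. Among replicates the members were mostly tight, with a median coefficient of variation of 8.97% to 17.8% over the 8 groups.

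Promoter windows of 5 members, each 300 bases long from 250 before to 50 after the gene start, are shown because their genes recur below (the called genes Cyp51, Msmo1 and Fasn, and the feedback gene Insig1) or because the window holds a textbook sterol regulatory element (Hmgcs1). They are RefSeq sequences of build GRCm38.p6, at chr5:4104648-4104947 (minus strand), chr5:28071162-28071461 (plus strand), chr8:64733529-64733828 (minus strand), chr11:120824498-120824797 (minus strand) and chr13:119690101-119690400 (plus strand). Capitals mark matches, on either strand, to the CCAAT box (CCAAT or ATTGG), the sterol regulatory element (TCACNCCAC or GTGGNGTGA) and the E-box (CACGTG).
Cyp51: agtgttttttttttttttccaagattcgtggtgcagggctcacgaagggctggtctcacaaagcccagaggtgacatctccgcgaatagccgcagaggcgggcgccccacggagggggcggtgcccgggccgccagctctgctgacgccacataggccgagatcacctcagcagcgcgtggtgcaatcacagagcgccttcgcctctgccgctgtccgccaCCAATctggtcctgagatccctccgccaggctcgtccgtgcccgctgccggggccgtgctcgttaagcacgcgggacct
Msmo1: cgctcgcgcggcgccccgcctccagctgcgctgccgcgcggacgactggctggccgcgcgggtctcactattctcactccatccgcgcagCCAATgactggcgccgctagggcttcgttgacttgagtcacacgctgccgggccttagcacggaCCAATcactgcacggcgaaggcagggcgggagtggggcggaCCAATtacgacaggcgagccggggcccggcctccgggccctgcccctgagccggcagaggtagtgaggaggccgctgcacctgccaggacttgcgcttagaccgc
Fasn: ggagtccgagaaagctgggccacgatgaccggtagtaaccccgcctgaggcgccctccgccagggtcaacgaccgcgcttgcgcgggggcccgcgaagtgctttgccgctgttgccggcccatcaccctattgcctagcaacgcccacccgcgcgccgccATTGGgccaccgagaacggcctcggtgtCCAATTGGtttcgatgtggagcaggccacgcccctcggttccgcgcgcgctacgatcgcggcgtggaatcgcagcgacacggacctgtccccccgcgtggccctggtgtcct
Insig1: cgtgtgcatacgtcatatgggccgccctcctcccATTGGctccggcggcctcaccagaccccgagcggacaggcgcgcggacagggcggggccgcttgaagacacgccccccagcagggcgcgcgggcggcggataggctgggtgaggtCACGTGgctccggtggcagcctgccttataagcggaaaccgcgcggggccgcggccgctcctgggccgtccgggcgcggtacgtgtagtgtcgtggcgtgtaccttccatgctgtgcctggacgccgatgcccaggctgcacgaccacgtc
Hmgcs1: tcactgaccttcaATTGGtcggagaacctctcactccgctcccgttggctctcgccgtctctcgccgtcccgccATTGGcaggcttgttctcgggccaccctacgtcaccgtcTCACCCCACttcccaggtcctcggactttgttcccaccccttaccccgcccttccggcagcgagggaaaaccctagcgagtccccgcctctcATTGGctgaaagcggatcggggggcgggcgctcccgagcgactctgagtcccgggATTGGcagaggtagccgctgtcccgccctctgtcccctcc

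The Cyp51 window held 1 CCAAT box, starting 29 bases before the gene start, and those of Msmo1 and Fasn held 3 matches each. In Fasn the matches starting 62 and 59 bases before the gene start, on opposite strands, share bases. Overlapping matches were counted apart here and below. The Hmgcs1 window held 4 with the only sterol regulatory element match among the members. The Insig1 window held 1 CCAAT box and 1 E-box. Of the 30 members, 23 had a window in the RefSeq table; Fads1, Scd2, Scd1, Sqle, Fdft1, Stard4 and Fdps did not. A CCAAT box was in the windows of 19 of these 23 members (82.6%), against 41.1% of 27025 genes, and 10 members held more than 1, against 13.3% of genes. The E-box was in 4 members, Dhcr7, Hsd17b7, Insig1 and Sc5d (17.4%), against 8.09% of genes. The sterol regulatory element letters were in 1 member (4.35%), against 1.44% of genes. The 27025 genes are all genes with a window, not only those measured or expressed here, so the members and that set are not alike. A match is a string of letters and not a measured binding site, and no test was made of these shares.

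In OT-I cells, A8B1-OVA against saline moved few of these genes. The desaturase Scd2, the sterol enzymes Fdft1 and Cyp51, the mevalonate enzyme Pmvk and the cholesterol carrier Stard4 rose, and 0 members fell. That is 5 of 30 members higher (16.7%), against 7.07% of all 14080 genes tested, and 0 of 30 lower, against 4.43%, in edgeR's quasi-likelihood test with a Benjamini-Hochberg adjusted p under 0.05. The median log2 fold change of the members was 0.10, against -0.02 over all genes, and 22 of 30 members lay within 0.5 of 0. In 9 members all A8B1-OVA libraries lay above all saline libraries and in 3 below, against 16.9% and 15.5% of all genes. In bulk RNA, a change in the share of cells of one state and a change in RNA per cell cannot be told apart.

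**Figure D1:**
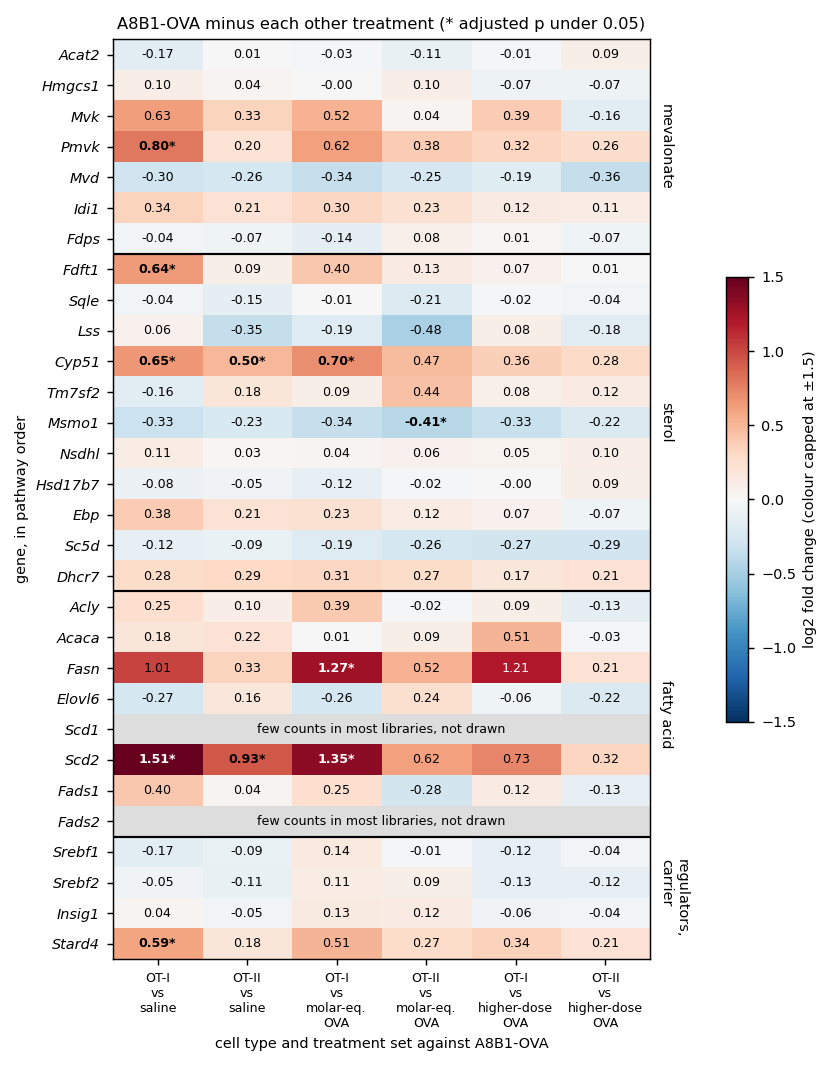
Heat map of the log2 fold change of each gene (rows, in pathway order) for A8B1-OVA minus saline, molar-equivalent OVA and higher-dose OVA in OT-I and OT-II cells (columns), with the value printed in each cell and an asterisk where the adjusted p was under 0.05. Scd2 and Cyp51 carry asterisks in 3 columns each, most cells are close to 0, and Scd1 and Fads2 are not drawn. The few counts printed in their rows hold for Fads2, while Scd1 was low and uneven between libraries (0.397 to 32.1 CPM).

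Of the 7 mevalonate genes, 1 rose and 6 did not pass. Pmvk, the phosphomevalonate kinase (chromosome 3, 89454541 to 89469013, plus strand, GRCm38), was at 23.9, 28.4 and 16.4 CPM in A8B1-OVA libraries, against 13.5, 12.7 and 13.1 CPM in saline libraries. The groups did not overlap, and the A8B1-OVA libraries were far wider apart than the saline libraries (log2 fold change 0.80 ± 0.21 SE, adjusted p = 0.0265, n = 3 each). Without A8B1-OVA replicate 2, the highest, the adjusted p was 0.133. Mvk, the mevalonate kinase, was also above saline in every library, at 13.4, 14.4 and 9.04 CPM in A8B1-OVA libraries against 7.87, 7.05 and 8.71 CPM in saline libraries, but was not called in edgeR (log2 fold change 0.63 ± 0.24 SE, adjusted p = 0.109), while DESeq2 called it (adjusted p = 0.0435). The other mevalonate genes were not called and lay on both sides of 0. Log2 fold changes were -0.17 ± 0.14 SE for Acat2 (acetoacetyl-CoA thiolase), 0.10 ± 0.16 SE for Hmgcs1 (HMG-CoA synthase), -0.30 ± 0.14 SE for Mvd (mevalonate diphosphate decarboxylase), 0.34 ± 0.17 SE for Idi1 (isopentenyl diphosphate isomerase) and -0.04 ± 0.16 SE for Fdps (farnesyl diphosphate synthase). Of these, Mvd was lower in every A8B1-OVA library than in any saline library. Parts of Acat2 (43.7% of its 31-base words), Fdps (27.9%), Idi1 (27.1%) and Hmgcs1 (13.1%) also occur in other genes or pseudogenes, so their estimated counts may be split.

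Of the 11 sterol genes, 2 rose and 9 did not pass. Cyp51, the lanosterol demethylase whose promoter window is printed above (chromosome 5, 4081145 to 4104746, minus strand), was at 55.1, 53.9 and 54.2 CPM in A8B1-OVA libraries, against 29.9, 35.4 and 38 CPM in saline libraries. Its A8B1-OVA libraries were nearly equal and lay above all saline libraries (log2 fold change 0.65 ± 0.16 SE, adjusted p = 0.0188, 1.57-fold). Its exons overlap those of Akap9 on the opposite strand, and Akap9 fell in this comparison (log2 fold change -0.86 ± 0.20 SE, adjusted p = 0.0157). Fdft1, the squalene synthase (chromosome 14, 63145150 to 63179578, minus strand), was at 36.8, 38.4 and 33.2 CPM in A8B1-OVA libraries, against 21.1, 24.4 and 23.4 CPM in saline libraries, without overlap (log2 fold change 0.64 ± 0.13 SE, adjusted p = 0.00597, 1.56-fold). Of the 31-base words of Fdft1, 31.9% also occur in Ctsb or a pseudogene, and Ctsb, a cathepsin that overlaps it on the opposite strand, rose too (log2 fold change 0.51 ± 0.15 SE, adjusted p = 0.0476). The strand of counting is not given in the sources used here, so reads of Fdft1 and Ctsb may not have been told apart.

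The other sterol genes gave no call in this comparison. Ebp, the sterol isomerase, was above saline in every library at 105, 91.8 and 74 CPM with A8B1-OVA against 69, 68.3 and 69.4 CPM with saline (log2 fold change 0.38 ± 0.15 SE, adjusted p = 0.121). Msmo1, the sterol C4 methyl oxidase, was below saline in every library at 34, 39.8 and 35.1 CPM with A8B1-OVA against 43.3, 43 and 49.1 CPM with saline (log2 fold change -0.33 ± 0.15 SE, adjusted p = 0.196). These genes thus lay on opposite sides of saline, and neither passed the threshold. Sqle, the squalene epoxidase, had a log2 fold change of -0.04 ± 0.21 SE, and Lss (lanosterol synthase), Tm7sf2 and Dhcr7 (sterol reductases), Nsdhl and Hsd17b7 (sterol dehydrogenases) and Sc5d (sterol desaturase) lay between -0.16 and 0.28.

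Of the 8 fatty acid genes, Scd2 rose and 7 did not pass. Scd2 encodes a stearoyl-CoA desaturase, which puts the first double bond into saturated fatty acids (chromosome 19, 44293674 to 44306864, plus strand). It was at 106, 143 and 95.3 CPM in A8B1-OVA libraries, against 39, 43.4 and 37.4 CPM in saline libraries, with the highest fold among the called members (log2 fold change 1.51 ± 0.22 SE, adjusted p = 0.000851, 2.85-fold). The lowest A8B1-OVA library lay far above the highest saline library. Fasn, the fatty acid synthase (chromosome 11, 120805846 to 120824547, minus strand), was at 208, 291 and 149.5 CPM in A8B1-OVA libraries, against 119.6, 120.0 and 79.4 CPM in saline libraries. The groups did not overlap but were widely spread, and Fasn was not called (log2 fold change 1.01 ± 0.34 SE, adjusted p = 0.0788). DESeq2 called it (adjusted p = 0.0215), as did a fit of only these 6 libraries (adjusted p = 0.0335). Log2 fold changes were 0.25 ± 0.20 SE for Acly (ATP citrate lyase, which makes cytosolic acetyl-CoA), 0.18 ± 0.24 SE for Acaca (acetyl-CoA carboxylase), -0.27 ± 0.21 SE for Elovl6 (a fatty acid elongase) and 0.40 ± 0.21 SE for Fads1 (a front-end desaturase). Acly lay above saline in all A8B1-OVA libraries, at 349, 377 and 429 CPM with A8B1-OVA against 305, 316 and 340.3 CPM with saline.

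Stard4, a carrier that moves cholesterol between membranes, was at 23.6, 30.5 and 22.2 CPM in A8B1-OVA libraries, against 16.8, 15.1 and 18.4 CPM in saline libraries (log2 fold change 0.59 ± 0.17 SE, adjusted p = 0.0445). The groups did not overlap, but the call was held in only 3 of 12 alternative fits, against 12 of 12 for Scd2, 11 of 12 for Fdft1, 9 of 12 for Cyp51 and 6 of 12 for Pmvk. Without the raised-marker libraries only Scd2 and Cyp51 were called, while the share of all genes called was 6.92%, against 11.5% with them. The log2 fold changes of the genes no longer called were then 0.59 for Fdft1 (adjusted p = 0.0542), 0.82 for Pmvk (adjusted p = 0.0881) and 0.59 for Stard4 (adjusted p = 0.139), close to those with all libraries. The A8B1-OVA libraries also differed in cell-cycle genes. The sum of 15 cell-cycle genes was 2251, 3550.0 and 1515 CPM in A8B1-OVA replicates 1, 2 and 3, against 724, 729 and 646 CPM in saline, and 14 of the 15 were called higher. Replicate 2, the highest in that sum, was the highest A8B1-OVA library in 4 of the 5 called members and in 18 of all 30. Replicate 3, the lowest in that sum, was the lowest in 4 of the 5 and in 16 of the 30. The share of all genes highest or lowest in these libraries was not counted, so this order is not shown to be particular to the members. The part of cell division in these levels was not tested.

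**Figure D2:**
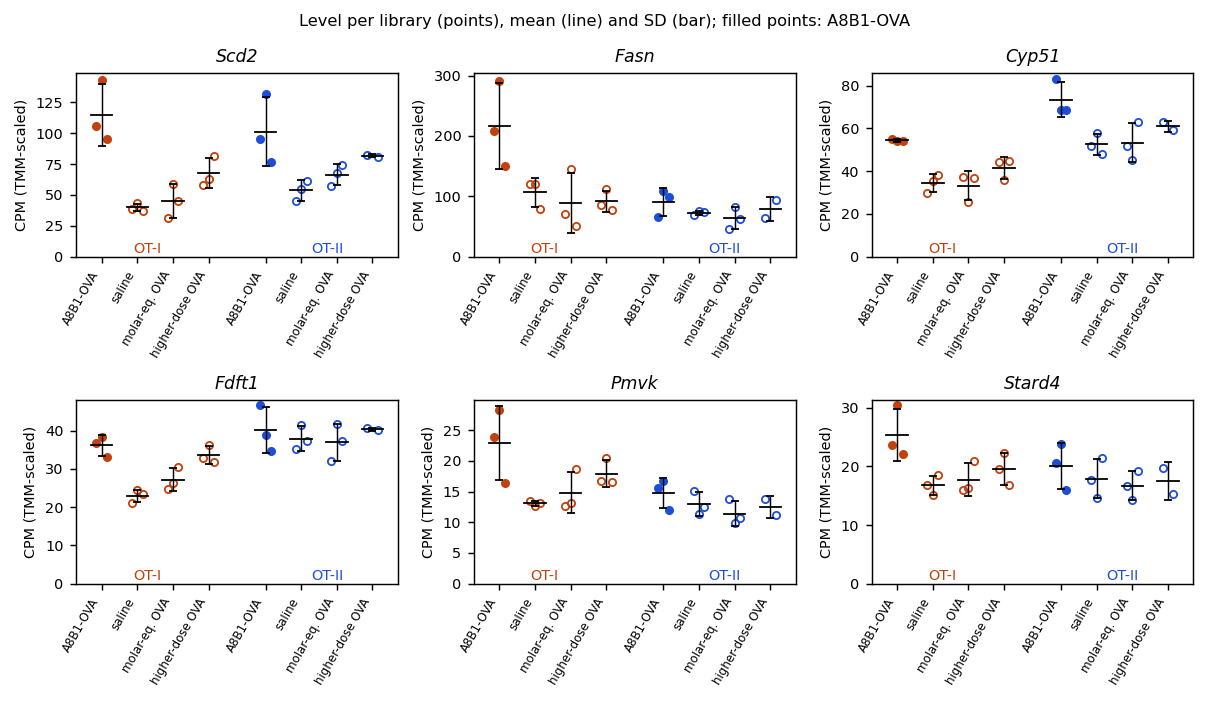
TMM-scaled CPM of Scd2, Fasn, Cyp51, Fdft1, Pmvk and Stard4 in each library (points, filled for A8B1-OVA), with the group mean (line) and SD (bar), for OT-I (orange) and OT-II (blue) cells. Scd2 with A8B1-OVA lies at 95.3 CPM or more in OT-I libraries, above the 81.4 CPM of the highest other OT-I library, and Fdft1 and Cyp51 are on average higher in OT-II than in OT-I cells within each treatment.

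Against molar-equivalent OVA, which sets A8B1-OVA beside the same amount of OVA alone, 3 of 30 members rose in OT-I cells, Scd2, Cyp51 and Fasn, against 6.56% of all genes called higher. In the other direction 0 members were called, against 4.06% of all genes. These comparisons reuse the same A8B1-OVA libraries, so their values are given side by side and not as further evidence. Scd2 was at 31.3, 58.5 and 44.8 CPM with molar-equivalent OVA, below every A8B1-OVA library (log2 fold change 1.35 ± 0.22 SE, adjusted p = 0.00218). Cyp51 was at 37.3, 25.4 and 37 CPM with molar-equivalent OVA, also without overlap (log2 fold change 0.70 ± 0.16 SE, adjusted p = 0.0136). Fasn was at 70.3, 146 and 50.5 CPM with molar-equivalent OVA. Its highest library there, replicate 2, is the one with raised myeloid and B cell markers and reached nearly the lowest A8B1-OVA library, yet Fasn was called (log2 fold change 1.27 ± 0.35 SE, adjusted p = 0.0344). A fit of only these groups called Scd2 alone, and Fasn was called in 2 of 6 fits that left out 1 library. Fdft1 (log2 fold change 0.40 ± 0.13 SE, adjusted p = 0.0591), Pmvk (log2 fold change 0.62 ± 0.21 SE, adjusted p = 0.0762) and Stard4 (log2 fold change 0.51 ± 0.17 SE, adjusted p = 0.079) lay in the same direction and did not pass, while DESeq2 called all of them.

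Against higher-dose OVA, 4 of 30 members in OT-I cells had an unadjusted p under 0.05 in edgeR. The share of all genes at that unadjusted threshold was not counted, here or below. At the adjusted threshold edgeR called 0 of 30 members, against 2.41% of all genes, and DESeq2 called 2, against 9.87%. Those 2 were Scd2, at 58.1, 63.1 and 81.4 CPM with higher-dose OVA (log2 fold change 0.73 ± 0.22 SE, adjusted p = 0.0957 in edgeR), and Fasn, at 85, 112 and 77.7 CPM with higher-dose OVA (log2 fold change 1.21 ± 0.35 SE, adjusted p = 0.0888 in edgeR). In both genes every A8B1-OVA library lay above every higher-dose OVA library, but the difference did not pass. Cyp51 was at 44, 35.7 and 44.6 CPM with higher-dose OVA (log2 fold change 0.36 ± 0.16 SE, adjusted p = 0.237). Fdft1 was at 32.8, 36.3 and 31.9 CPM with higher-dose OVA, close to its A8B1-OVA levels (log2 fold change 0.07 ± 0.13 SE, adjusted p = 0.822).

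Higher-dose OVA against saline in OT-I cells called 1 of 30 members, Fdft1 (log2 fold change 0.57 ± 0.13 SE, adjusted p = 0.0327), against 1.97% of all genes higher. Its call was lost in all 6 fits that left out 1 library, where its adjusted p was 0.0605 to 0.186, and Ctsb on the opposite strand was called in the same direction (log2 fold change 0.66 ± 0.15 SE, adjusted p = 0.0405). Scd2 was above saline in all higher-dose OVA libraries without a call (log2 fold change 0.78 ± 0.22 SE, adjusted p = 0.0938). DESeq2 (adjusted p = 0.0237) and a fit of only these groups (adjusted p = 0.0138) called it. For Scd2 in OT-I cells the mean level was 115 ± 25.1 CPM with A8B1-OVA, 67.5 ± 12.3 CPM with higher-dose OVA, 44.9 ± 13.6 CPM with molar-equivalent OVA and 39.9 ± 3.13 CPM with saline (SD, n = 3 each). In that order no step between neighbours passed in edgeR, and DESeq2 called the step between A8B1-OVA and higher-dose OVA. Molar-equivalent OVA against saline called 0 of 30 members by edgeR and by DESeq2, against 0% and 0.00559% of all genes. Higher-dose against molar-equivalent OVA also called 0 of 30 by both, against 1.04% of all genes in edgeR and 5.14% in DESeq2. At an unadjusted p under 0.05 in edgeR these comparisons held 1 and 4 members, and the share of all genes there was not counted.

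In OT-II cells, Scd2 and Cyp51 rose with A8B1-OVA against saline, and 0 members fell. That is 2 of 30 members higher (6.67%), against 4.4% of all genes, and 0 lower, against 2.88%. The median log2 fold change of the members was 0.07, against -0.01 over all genes. Scd2 was at 95.2, 132 and 76.7 CPM in A8B1-OVA libraries, against 45, 54.5 and 61.5 CPM in saline libraries (log2 fold change 0.93 ± 0.18 SE, adjusted p = 0.0101, 1.9-fold). The groups did not overlap, and all 12 alternative fits held the call. Cyp51 was at 82.9, 68.6 and 68.8 CPM in A8B1-OVA libraries, against 51.6, 57.7 and 48.1 CPM in saline libraries (log2 fold change 0.50 ± 0.14 SE, adjusted p = 0.0467). Its groups did not overlap, yet leaving out any 1 of the 6 libraries lost the call. The sum of the 15 cell-cycle genes was 893, 1069 and 642 CPM in the A8B1-OVA libraries, against 536, 425 and 412 CPM in saline, and its part in these levels was not tested. Dhcr7, which encodes the last reductase of the pathway, was at 68.2, 68.6 and 66.1 CPM in A8B1-OVA libraries, against 48.9, 59.9 and 58 CPM in saline libraries, and was called by DESeq2 but not by edgeR (log2 fold change 0.29 ± 0.10 SE, adjusted p = 0.111).

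The other genes called in OT-I cells gave no call in OT-II cells. Fdft1 was at 46.7, 38.8 and 34.8 CPM with A8B1-OVA against 35.1, 41.4 and 37.2 CPM with saline (log2 fold change 0.09 ± 0.14 SE, adjusted p = 0.784). Pmvk was at 15.6, 16.8 and 12.1 CPM with A8B1-OVA against 15.1, 11.4 and 12.4 CPM with saline (log2 fold change 0.20 ± 0.19 SE, adjusted p = 0.622), and Stard4 at 20.6, 23.7 and 15.9 CPM with A8B1-OVA against 17.7, 14.7 and 21.4 CPM with saline (log2 fold change 0.18 ± 0.20 SE, adjusted p = 0.685). In all of these genes the A8B1-OVA and saline libraries overlapped. Fasn was at 65.1, 109 and 98 CPM with A8B1-OVA against 69, 75.8 and 73.6 CPM with saline (log2 fold change 0.33 ± 0.23 SE, adjusted p = 0.463).

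Whether the response differed between the cell types was tested as an interaction over all 23 libraries. EdgeR called 0 of 30 members, against 0.433% of all 15235 genes tested, and DESeq2 called 0, against 1.99% of genes. At an unadjusted p under 0.05 edgeR had 2 members, Fdft1 and Pmvk. The OT-I minus OT-II difference of the A8B1-OVA response was 0.57 ± 0.18 SE (adjusted p = 0.237) for Fdft1, 0.62 ± 0.29 SE (adjusted p = 0.514) for Pmvk, 0.61 ± 0.30 SE (adjusted p = 0.57) for Scd2 and 0.71 ± 0.45 SE (adjusted p = 0.703) for Fasn. A call in OT-I cells without one in OT-II cells is therefore not shown to be a difference between them. For the response to higher-dose OVA, edgeR and DESeq2 called 0 of 30 members, against 0.00656% and 0.506% of all genes. At an unadjusted p under 0.05 edgeR had 2 members.

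Against molar-equivalent OVA in OT-II cells, 1 of 30 members was called, and it fell, against 2.43% of all genes called lower and 3.94% called higher. Msmo1 was at 60.4, 47.9 and 49.8 CPM in A8B1-OVA libraries, against 75.3, 65.8 and 71 CPM in molar-equivalent OVA libraries, without overlap (log2 fold change -0.41 ± 0.11 SE, adjusted p = 0.0471). This call was held in 3 of 12 alternative fits. Without the raised-marker libraries Msmo1 was not called (log2 fold change -0.40, adjusted p = 0.124), and Cyp51 was (log2 fold change 0.61, adjusted p = 0.037). In the fit of all libraries Cyp51 (log2 fold change 0.47 ± 0.14 SE, adjusted p = 0.0603) and Scd2 (log2 fold change 0.62 ± 0.18 SE, adjusted p = 0.0674) were above molar-equivalent OVA in every library and did not pass in edgeR. DESeq2 called both higher (adjusted p = 0.0122 for Cyp51 and 0.0137 for Scd2) beside the fall of Msmo1, and 9 members had an unadjusted p under 0.05 in edgeR. In OT-II cells edgeR and DESeq2 called 0 of 30 members in the comparisons not yet given. These were A8B1-OVA against higher-dose OVA, higher-dose OVA against saline, higher-dose against molar-equivalent OVA and molar-equivalent OVA against saline. In that order, the shares of all genes called were 1.34%, 0.0271%, 0% and 0% in edgeR and 5.88%, 0.681%, 0.318% and 0.135% in DESeq2. At an unadjusted p under 0.05 in edgeR these comparisons held 1, 4, 1 and 0 members, and the share of all genes there was not counted.

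The messages of the regulators themselves showed no call with A8B1-OVA in either cell type. Srebf2, whose product SREBP2 drives mainly the cholesterol genes, was at 249.6, 245 and 243 CPM in OT-I A8B1-OVA libraries, against 235, 256 and 266 CPM in OT-I saline libraries (log2 fold change -0.05 ± 0.10 SE, adjusted p = 0.806). In OT-II libraries it was at 310.3, 397 and 317 CPM with A8B1-OVA against 361, 376 and 379 CPM with saline (log2 fold change -0.11 ± 0.12 SE, adjusted p = 0.687). Srebf1, whose product SREBP1 drives mainly the fatty acid genes, was at 162, 165 and 158 CPM in OT-I A8B1-OVA libraries, against 186, 162 and 195 CPM in OT-I saline libraries (log2 fold change -0.17 ± 0.16 SE, adjusted p = 0.531). In OT-I cells the A8B1-OVA libraries of both genes lay close to each other and overlapped the saline libraries. Srebf1 was at 177, 159 and 132 CPM with A8B1-OVA against 176, 151 and 178 CPM with saline in OT-II libraries (log2 fold change -0.09 ± 0.12 SE, adjusted p = 0.721). Insig1, the sterol-sensing retention factor and itself a target of SREBP2, was at 25.7, 21.3 and 22.1 CPM with A8B1-OVA against 18.7, 22.6 and 25.4 CPM with saline in OT-I libraries (log2 fold change 0.04 ± 0.17 SE, adjusted p = 0.91). In OT-II libraries Insig1 was at 31.8, 27.8 and 33.2 CPM with A8B1-OVA against 30.9, 33.8 and 32 CPM with saline (log2 fold change -0.05 ± 0.15 SE, adjusted p = 0.913). Message levels do not show how much SREBP protein was cut and active.

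**Figure D3:**
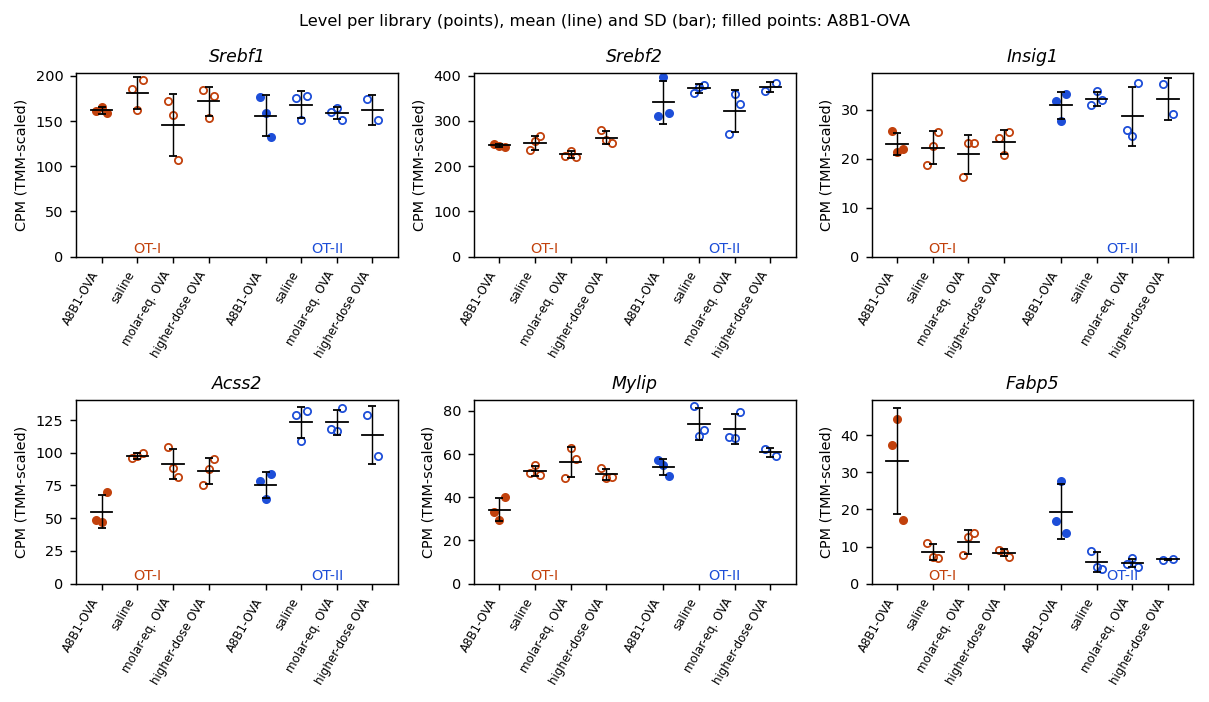
TMM-scaled CPM of the regulators Srebf1, Srebf2 and Insig1 and of the related genes Acss2, Mylip and Fabp5 in each library (points, filled for A8B1-OVA), with the group mean (line) and SD (bar), for OT-I (orange) and OT-II (blue) cells. The regulators overlap between A8B1-OVA and saline, while Acss2 and Mylip lie lower and Fabp5 higher in every A8B1-OVA library than in any saline library of the same cells.

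Around the 30 members, 20 further genes of the SREBP pathway and lipid supply were looked up, of which 19 passed the filter. With A8B1-OVA against saline 1 was higher and 3 were lower in OT-I cells, and 1 higher and 3 lower in OT-II cells, with median log2 fold changes of -0.12 and -0.09. Acss2, which makes acetyl-CoA from acetate, was at 48.3, 47.2 and 69.6 CPM in OT-I A8B1-OVA libraries, against 95.9, 97.2 and 100.1 CPM in OT-I saline libraries (log2 fold change -0.84 ± 0.16 SE, adjusted p = 0.00506). In OT-II libraries it was at 78.1, 64.3 and 83.7 CPM with A8B1-OVA against 128, 109 and 132 CPM with saline (log2 fold change -0.69 ± 0.13 SE, adjusted p = 0.0087). Acss2 thus fell without overlap in both cell types, the opposite direction to Scd2. Fabp5, a fatty acid carrier, rose in both, by 1.96 ± 0.33 SE in OT-I cells and 1.78 ± 0.33 SE in OT-II cells on the log2 scale. Ggps1, which makes geranylgeranyl diphosphate from the mevalonate pathway, fell in both, with log2 fold changes of -0.46 ± 0.13 SE (adjusted p = 0.0325) in OT-I cells and -0.44 ± 0.12 SE (adjusted p = 0.0494) in OT-II cells. The fourth call of this list in OT-I cells was Acacb, the mitochondrial acetyl-CoA carboxylase, which averaged 0.361 ± 0.118 CPM with A8B1-OVA and 1.3 ± 0.101 CPM with saline (SD, n = 3 each; log2 fold change -1.85 ± 0.42 SE, adjusted p = 0.0139).

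Of 12 genes of the liver X receptor and sterol efflux group, 1 fell and 0 rose in OT-I cells, and 3 fell and 0 rose in OT-II cells, in edgeR's test of A8B1-OVA against saline; 3 and 5 of the 12 had an unadjusted p under 0.05. Mylip, a ubiquitin ligase and textbook target of liver X receptors, was at 33.1, 29.5 and 40.1 CPM with A8B1-OVA against 51.3, 54.9 and 50.5 CPM with saline in OT-I libraries (log2 fold change -0.62 ± 0.14 SE, adjusted p = 0.0119). In OT-II libraries it was at 57.3, 55 and 50 CPM with A8B1-OVA against 82.3, 68.2 and 71.3 CPM with saline (log2 fold change -0.44 ± 0.11 SE, adjusted p = 0.0286). The other calls in OT-II cells were lysosomal genes. Npc2, which hands cholesterol on, was at 205, 232 and 184 CPM with A8B1-OVA against 322, 268 and 301 CPM with saline (log2 fold change -0.51 ± 0.11 SE, adjusted p = 0.0135). Lipa, which cleaves cholesteryl esters, was at 162, 166 and 178 CPM with A8B1-OVA against 235, 207 and 218 CPM with saline (log2 fold change -0.37 ± 0.08 SE, adjusted p = 0.0196). In both the highest library is saline replicate 1. The myeloid sum was 49.7, 84.5 and 39.9 CPM in the A8B1-OVA libraries, against 566, 78 and 97.3 CPM in the saline libraries. Its part in these genes was not tested. Their values without the raised-marker libraries, a set that holds saline replicate 1, are not reported here. Of 15 fatty acid oxidation genes, 4 rose and 1 fell in OT-I cells, and 2 rose and 0 fell in OT-II cells. Cpt2, the inner-membrane carnitine acyltransferase, rose in both, with log2 fold changes of 0.49 ± 0.14 SE (adjusted p = 0.0399) in OT-I cells and 0.55 ± 0.12 SE (adjusted p = 0.0135) in OT-II cells. In OT-I cells the dehydrogenases Acads (0.79 ± 0.20 SE) and Acadl (0.56 ± 0.12 SE) and the trifunctional subunit Hadha (0.67 ± 0.16 SE) rose, and Acadm, the medium-chain dehydrogenase, fell (-0.49 ± 0.13 SE). Etfb, an electron carrier of this pathway, rose in OT-II cells (log2 fold change 0.58 ± 0.16 SE, adjusted p = 0.0451). Of the 31-base words of Etfb, 49.9% also occur in other genes, so its estimated counts may be split. The shares of all genes called in these comparisons are those given above for the members.

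The cell types were also compared without antigen. After saline, the sterol genes Sqle, Fdft1, Cyp51 and Msmo1, the mevalonate gene Fdps and the regulators Srebf2 and Insig1 were lower in OT-I than in OT-II cells. That is 7 of 30 members lower and 0 higher (23.3% lower), against 7.11% of all 15235 genes lower and 8.36% higher. The median log2 fold change of the members, OT-I minus OT-II, was -0.22, against -0.02 over all genes, and that of the 11 sterol genes was -0.27. In 11 members every OT-I library lay below every OT-II library and in 1 above, against 16.5% and 18.2% of all genes. The called genes were 4 of the 11 sterol genes, 1 of the 7 mevalonate genes, 2 of the 4 regulators and carriers, and 0 of the 8 fatty acid genes.

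Sqle, the epoxidase that commits squalene to sterols (chromosome 15, 59315077 to 59331192, plus strand), was at 18.8, 25.4 and 32.7 CPM in OT-I saline libraries, against 44.5, 45.2 and 57.1 CPM in OT-II saline libraries (log2 fold change -0.93 ± 0.20 SE, adjusted p = 0.00201). Fdft1, the step before it, was at 21.1, 24.4 and 23.4 CPM in OT-I libraries, against 35.1, 41.4 and 37.2 CPM in OT-II libraries (log2 fold change -0.72 ± 0.13 SE, adjusted p = 0.000448). Here too reads of Fdft1 and Ctsb may not have been told apart, and Ctsb is not reported for this comparison. Cyp51 was at 29.9, 35.4 and 38 CPM in OT-I libraries, against 51.6, 57.7 and 48.1 CPM in OT-II libraries (log2 fold change -0.61 ± 0.15 SE, adjusted p = 0.00759). None of these sterol genes overlapped between the cell types. Msmo1 was at 43.3, 43 and 49.1 CPM in OT-I libraries, against 60.6, 65 and 60.9 CPM in OT-II libraries (log2 fold change -0.46 ± 0.13 SE, adjusted p = 0.0208). Fdps, which makes the precursor of squalene, was at 50.9, 50.8 and 55.8 CPM in OT-I libraries, against 78.9, 71.8 and 71.5 CPM in OT-II libraries (log2 fold change -0.50 ± 0.16 SE, adjusted p = 0.034). These genes did not overlap between the cell types either.

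The master regulator of this arm lay on the same side. Srebf2 (chromosome 15, 82147181 to 82205379, plus strand) was at 235, 256 and 266 CPM in OT-I saline libraries, against 361, 376 and 379 CPM in OT-II saline libraries (log2 fold change -0.56 ± 0.11 SE, adjusted p = 0.000868). Insig1 was at 18.7, 22.6 and 25.4 CPM in OT-I libraries, against 30.9, 33.8 and 32 CPM in OT-II libraries (log2 fold change -0.54 ± 0.16 SE, adjusted p = 0.0305). Both genes were lower in every OT-I library than in any OT-II library, whereas Srebf1 overlapped, at 186, 162 and 195 CPM in OT-I libraries against 176, 151 and 178 CPM in OT-II libraries (log2 fold change 0.11 ± 0.14 SE, adjusted p = 0.706). Of the further pathway genes, the acyl-CoA synthetase Acsl3 (log2 fold change -1.94 ± 0.28 SE, adjusted p = 5.18e-05) was also lower in OT-I cells, and the elongase Elovl5 was higher (log2 fold change 0.50 ± 0.12 SE, adjusted p = 0.00853). Of the efflux group, Lipa (-0.74 ± 0.11 SE), Mylip (-0.50 ± 0.12 SE), Lpcat3 (-0.44 ± 0.11 SE) and the efflux pump Abca1 (-1.19 ± 0.36 SE) were lower and Smpdl3a was higher (0.40 ± 0.12 SE). Etfdh was the only call among the 15 oxidation genes (log2 fold change 0.49 ± 0.12 SE, adjusted p = 0.00979).

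The fatty acid genes gave 0 calls in the fit of all libraries by edgeR and by DESeq2, against 15.5% and 20.6% of all genes called in either direction. At an unadjusted p under 0.05 in edgeR there was 1 of 8. Fasn was at 119.6, 120.0 and 79.4 CPM in OT-I saline libraries, against 69, 75.8 and 73.6 CPM in OT-II saline libraries (log2 fold change 0.55 ± 0.32 SE, adjusted p = 0.291), and Acaca at 14.1, 17.4 and 12.2 CPM in OT-I libraries, against 5.14, 12.8 and 10.8 CPM in OT-II libraries (log2 fold change 0.60 ± 0.27 SE, adjusted p = 0.16). Fasn was above OT-II cells in every OT-I library, Acaca overlapped, and neither was called in the fit of all libraries. With the replicate number as a block, Acaca was called (log2 fold change 0.65 ± 0.20 SE, adjusted p = 0.0329). Of the 31-base words of Acaca, 33.5% also occur in other genes or pseudogenes, so its estimated counts may be split. Scd2 was at 39, 43.4 and 37.4 CPM in OT-I libraries, against 45, 54.5 and 61.5 CPM in OT-II libraries, lower in every OT-I library (log2 fold change -0.43 ± 0.21 SE, adjusted p = 0.209). A fit of only the saline libraries called Fasn higher (adjusted p = 0.0328, and 0.0261 with the block) and Scd2 lower in OT-I cells (adjusted p = 0.0496, and 0.0411 with the block). The calls of Sqle, Fdft1, Cyp51 and Srebf2 were held in all 13 alternative fits, and those of Msmo1 in 9, Insig1 in 8 and Fdps in 6 of them. Saline replicate 1 of both cell types has raised myeloid markers, and without the raised-marker libraries Sqle, Fdft1, Srebf2 and Cyp51 were called.

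**Figure D4:**
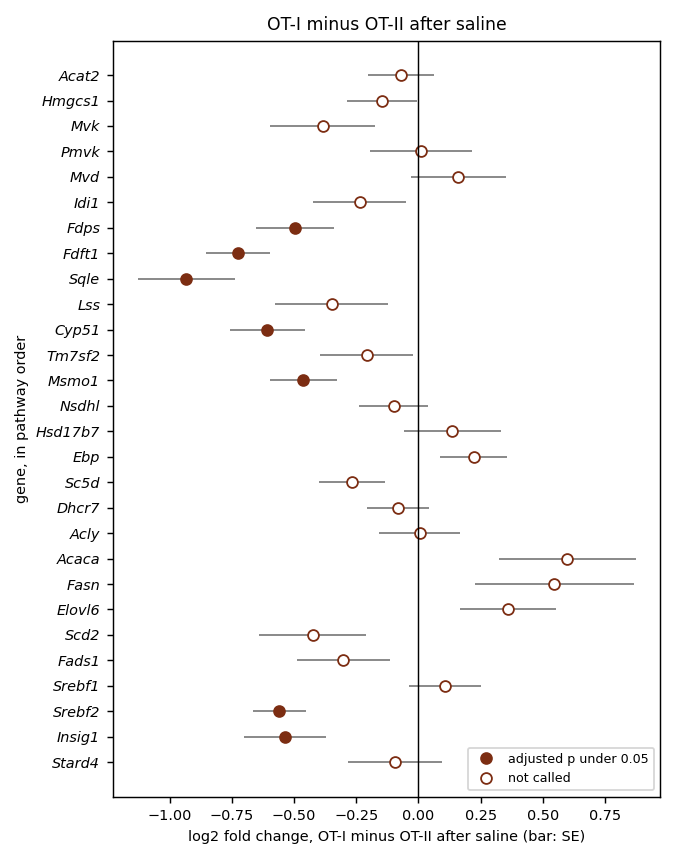
Log2 fold change of OT-I minus OT-II cells after saline with its SE for 28 of the 30 genes in pathway order (filled points: adjusted p under 0.05). Scd1 is left out for its low and uneven level and Fads2 for its few counts. Filled points run from -0.93 for Sqle to -0.46 for Msmo1 and all lie below 0, while Acaca, Fasn and Elovl6 lie above 0 without a call.

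After A8B1-OVA every OT-I library lay below every OT-II library for Sqle, Cyp51, Msmo1, Srebf2 and Insig1, a difference that was not tested. The share of all genes in that order was not counted. Sqle was at 25.2, 27.3 and 22.6 CPM in OT-I A8B1-OVA libraries and 44.5, 41.8 and 45.2 CPM in OT-II A8B1-OVA libraries. Cyp51 was at 55.1, 53.9 and 54.2 CPM in OT-I libraries and 82.9, 68.6 and 68.8 CPM in OT-II libraries. Msmo1 ran from 34.02 to 39.76 CPM in OT-I libraries and 47.87 to 60.43 CPM in OT-II libraries. Srebf2 ran from 242.9 to 249.6 CPM in OT-I libraries and 310.3 to 396.6 CPM in OT-II libraries. Insig1 ran from 21.32 to 25.66 CPM in OT-I libraries and 27.8 to 33.19 CPM in OT-II libraries. For Fdft1 the OT-I levels with A8B1-OVA (36.8, 38.4 and 33.2 CPM) overlapped its OT-II levels (46.7, 38.8 and 34.8 CPM). Fdps overlapped too, at 42.21 to 56.27 CPM in OT-I libraries and 54.12 to 79.82 CPM in OT-II libraries.

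A pair of desaturases was low and uneven between libraries. Scd1, the main stearoyl-CoA desaturase of liver and fat, was at 0.484, 5.75 and 2.78 CPM in OT-I A8B1-OVA libraries, 1.31, 0.434 and 2.82 CPM with higher-dose OVA, 0.832, 32.1 and 3.37 CPM with molar-equivalent OVA and 3.92, 1.25 and 1.26 CPM with saline. The one high library, molar-equivalent OVA replicate 2, is the one with the highest myeloid sum (895 CPM) and B cell sum (544 CPM). In OT-II cells Scd1 was at 3.92, 2.11 and 0.397 CPM with A8B1-OVA, 1.84 and 2.4 CPM with higher-dose OVA, 3.75, 3.84 and 12.6 CPM with molar-equivalent OVA and 3.59, 5.41 and 2.36 CPM with saline. Its highest OT-II library, molar-equivalent OVA replicate 3, has the highest OT-II B cell sum (187 CPM) but a myeloid sum of 145 CPM, and OT-II saline replicate 1, with a myeloid sum of 566 CPM, had no such level. The part of other cells in Scd1 was not tested, and no comparison called it (A8B1-OVA minus saline log2 fold change 0.47 ± 1.09 SE, adjusted p = 0.824 in OT-I and log2 fold change -0.81 ± 0.67 SE, adjusted p = 0.564 in OT-II). By contrast Scd2, which shares 6.81% of its 31-base words with the other Scd genes, was called also without the raised-marker libraries (adjusted p = 0.00543 in OT-I and 0.0454 in OT-II).

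**Figure D5:**
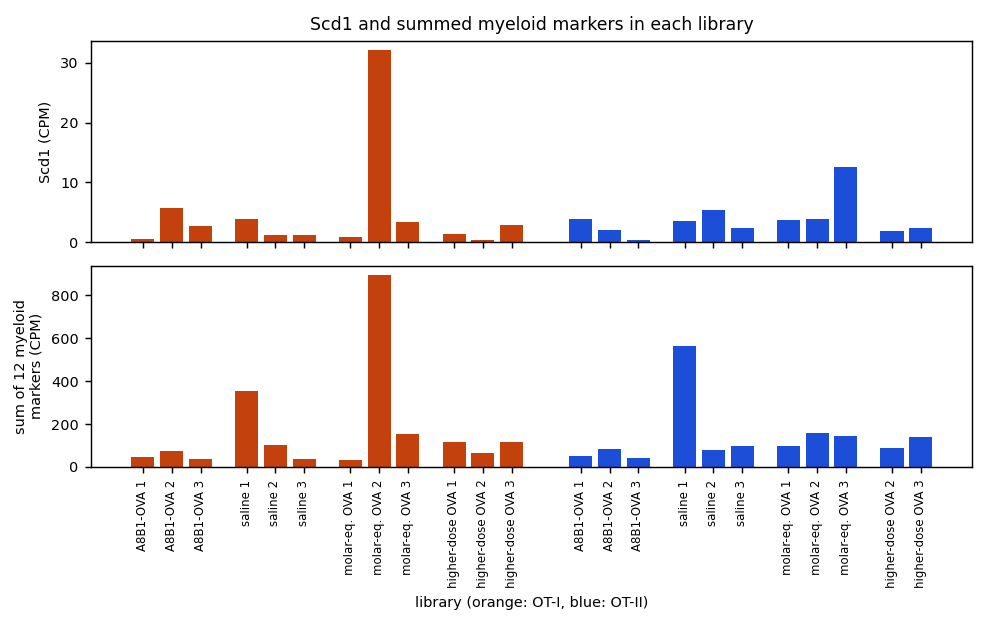
Scd1 (upper bars) and the sum of 12 myeloid marker genes (lower bars), both in TMM-scaled CPM, in each of the 23 libraries, with OT-I libraries in orange and OT-II libraries in blue. Both bars are highest in OT-I molar-equivalent OVA replicate 2 (32.1 CPM of Scd1 and 895 CPM of the markers), whereas the second highest marker sum, in OT-II saline replicate 1, has no such Scd1 bar.

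Fads2, the delta-6 desaturase, had at most 40 counts in any library. It had 2, 6 and 6 counts in OT-I A8B1-OVA libraries and 15, 3 and 4 in OT-I saline libraries, and 16, 38 and 33 in OT-II A8B1-OVA libraries and 40, 1 and 0 in OT-II saline libraries. It passed the filter through a few libraries, and no comparison called it. Fads1, which acts after it, was measured well, at 19.2 ± 3.85 CPM with A8B1-OVA and 14.4 ± 0.829 CPM with saline in OT-I libraries, and 18.1 ± 0.36 CPM with A8B1-OVA and 17.8 ± 1.09 CPM with saline in OT-II libraries (SD, n = 3 each), and was not called either.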

How the data were processed

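Polyadenylated RNA of OT-I and OT-II cells was measured in 23 libraries of 8 groups. The deposited values are estimated counts per gene from kallisto 0.46.1 on GRCm38, per the submitters' processing notes. They are whole numbers, and how they were rounded or summed over transcripts, the annotation release and the strand setting are not stated there or in the labels. Total counts ran from 26584040 to 73503642 per library, and intervals from counts cover counting error only. Within a group no library repeated another, and libraries of different groups were not compared in this way.

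Genes were filtered with filterByExpr (minimum count 10, minimum total 15), scaled with TMM and tested with edgeR 4.0.16 (quasi-likelihood, R 4.3.3) in 1 fit per cell type with all treatments (14080 genes in OT-I, 14757 in OT-II) and 1 joint fit for comparisons between cell types (15235 genes). Calls are at a Benjamini-Hochberg adjusted p under 0.05 over all genes tested. SE is the log2 fold change divided by the root of the F statistic. The script was tested on simulated counts. DESeq2 1.42.0 and other alternatives are in the closing section. Whether same-numbered libraries deviate together was looked at by correlation. Within a cell type r ran from -0.347 to 0.157 over 18 pairs in OT-I (2 over 0.1) and from -0.144 to 0.0634 over 15 pairs in OT-II. Between the cell types r ran from -0.0261 to 0.281 over 11 pairs, 6 of them over 0.1. The 3 saline pairs were at 0.128 to 0.281, highest for replicate 1, where both libraries have raised myeloid markers. These values do not settle whether the number pairs libraries, so the block was fitted as an alternative only.

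The members, the other gene lists and the raised-marker libraries were chosen with earlier results of these data known. Every member is accounted for. Values in every library are given for members called with A8B1-OVA against saline or molar-equivalent OVA or in an interaction, for Srebf1, Srebf2, Insig1, Fasn and Scd1 by rule, and for some near the threshold chosen after their values were seen. From each other list the count and up to 4 called genes of lowest adjusted p are named. Some genes of the lists are not reported here. Ctsb and Akap9, and the fifth call of a list that had 5, were named after their values were seen. Gene coordinates come from the GENCODE M21 annotation of GRCm38, and shared 31-base words were counted between its transcripts. Promoter windows come from RefSeq (GRCm38.p6), and both strands were searched.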

Additional observations from a re-analysis of the deposited data

How the results depend on the processing

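No called log2 fold change changed sign in any alternative. In OT-II cells the member called for A8B1-OVA against molar-equivalent OVA did change, being Msmo1 lower with all libraries and Cyp51 higher without the raised-marker libraries. Each count is followed by the share of all genes called in that fit and, in square brackets, the count and share of the edgeR fit of all libraries. With DESeq2, A8B1-OVA called 6 members (17.6% of genes) against molar-equivalent OVA [3, 10.6%] and 2 (9.87%) against higher-dose OVA [0, 2.41%], both in OT-I cells, where higher-dose OVA against saline called 2 (5.12%) [1, 2.41%]. In OT-II cells the comparison of A8B1-OVA with molar-equivalent OVA called 3 (14%) [1, 6.36%]. Without the low filter the last 2 gave 0 (1.78%) and 0 (5%). Without the raised-marker libraries A8B1-OVA against saline gave 2 (6.92%) in OT-I [5, 11.5%] and 1 (4.99%) in OT-II [2, 7.28%]. Higher-dose OVA against saline in OT-I then gave 0 (0.907%), and OT-I against OT-II after saline 4 (10.6%) [7, 15.5%]. With only the groups compared, OT-I cells gave 1 (4.3%) against molar-equivalent OVA, 1 (1.62%) against higher-dose OVA and 2 (4.46%) for higher-dose OVA against saline. OT-II cells gave 1 (5.27%) for A8B1-OVA against saline and 0 (5.63%) against molar-equivalent OVA. In most of these fits the share of all genes moved in the same direction as the members' count. The cause of these shifts was not tested.

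With the replicate number as a block, A8B1-OVA against higher-dose OVA gave 1 (2.11%) and higher-dose OVA against saline 0 (1.85%) in OT-I cells. A8B1-OVA gave 1 (5.91%) against saline and 0 (5.06%) against molar-equivalent OVA in OT-II cells. Within a cell type the libraries share only a number. Between the saline groups the block gave 8 calls (15.6%), Acaca added. A fit of only these 6 libraries gave 9 without the block (20.4%) and, as an alternative chosen after seeing the data, 9 with it (26.1%), Fasn and Scd2 added in both. The block changed no other count by over 1.5 times.

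Leaving out 1 library at a time gave 2 to 8 calls for A8B1-OVA against saline, 2 to 6 against molar-equivalent OVA, 0 to 2 against higher-dose OVA and 0 to 0 for higher-dose OVA against saline in OT-I cells. It gave 1 to 1 for A8B1-OVA against saline and 0 to 1 against molar-equivalent OVA in OT-II cells, and 4 to 6 for OT-I against OT-II after saline. The shares of all genes called in these fits are not reported here, so these ranges are not shown to be particular to the members. Of 282 single-gene values with 1 library left out, 185 kept their direction and call, 91 lost the call, 1 gained it and 5 moved. Of 289 under the other alternatives, 247 kept both, 37 lost the call, 3 gained it and 2 moved. Groups of 3 pools, or 2 in OT-II higher-dose OVA, limit small changes. The spread between libraries limits Scd1, and low counts limit Fads2.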
